A study of Mus musculus with 140 samples.

Results

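In striatum of normal mice, the positions at which the RNA-binding protein TDP-43 was crosslinked to RNA were compared with the positions of N6-methyladenosine (m6A), a methyl mark on adenosines of RNA. Both were mapped by eCLIP, which sequences the RNA fragments that come down with an antibody and scores each cluster of reads against an input library of the same sample. The comparison used the 16 immunoprecipitation libraries of non-transgenic (NT) striatum, 8 of TDP-43 and 8 of m6A, out of 70 immunoprecipitation libraries and 140 samples in the series. They were chosen by their labels alone. Each group of 8 held 4 males and 4 females of 3 months that had received no treatment. The NT mice were littermates of R6/2 mice, a Huntington's disease line on a B6CBA background that carries a fragment of human HTT with an expanded repeat. Libraries of NT cortex and of R6/2 striatum, 16 each, served only for a comparison of the overlap. For m6A, total RNA was extracted and polyadenylated RNA was selected. For TDP-43, frozen and crushed tissue was crosslinked with ultraviolet light before lysis. RNA preparation and antibody changed together, so differences between the assays cannot be told apart from differences between the preparations. The labels do not say that libraries of the same number come from 1 mouse.

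TDP-43 binds single-stranded RNA rich in GU repeats through its RNA recognition motifs and acts in splicing, in 3′ end processing and in the stability and transport of mRNA, also in neurons. m6A is laid down during transcription by the METTL3 and METTL14 methyltransferase on the sequence DRACH (D is A, G or U, R is A or G, H is A, C or U), of which GGACU is a frequent form. It is known to lie near stop codons and in long internal exons, away from splice junctions, and is read by YTH proteins. Both act on the same transcripts in brain, and the question here was whether they mark the same genes, the same transcript features and the same bases.

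The TDP-43 libraries listed between 133211 and 178655 clusters and the m6A libraries between 143693 and 198657. Clusters with a p of 0.001 or less over input, called enriched below, numbered 4929, 19112.5 and 24127 (lowest, median and highest) for TDP-43, and 67501, 70677.5 and 76711 for m6A. The 4929 belonged to the TDP-43 library of male 1, which stood apart from the other 7. A library's enriched clusters on 10 striatal marker genes (among them Drd1, Drd2, Penk and Ppp1r1b) numbered 75 to 172 for TDP-43 and 178 to 241 for m6A, against 0 to 8 and 17 to 39 on 5 markers of cortical excitatory neurons. The files hold no reads, so the depth of each library is unknown, and a cluster says that RNA was recovered at a place, not how much. A transcript present in few cells and one present at a low level per cell cannot be told apart in such tissue.

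The 2 motifs that the results turn on are shown first in sites of named genes. Each line is at most 30 bases of a longer stretch on which 8 of 8 libraries of its assay had an enriched cluster, and the capitals mark GUGUG under TDP-43 and GGACU under m6A, in DNA letters on the transcribed strand (mm10 positions, bases from RefSeq GRCm38.p6). The first 4 are TDP-43 sites, in the 3′ UTR of Grin2b (an NMDA receptor subunit, chr6:135730463-135730492, minus strand), of Mapt (tau, chr11:104328899-104328928, plus strand) and of Tomm20 (a receptor of the mitochondrial import machinery, chr8:126932048-126932077, minus strand), and in an exon of the noncoding RNA Peg13 (chr15:72806989-72807018, minus strand). The other 4 are m6A sites, in exons of the noncoding RNAs Malat1 (chr19:5801411-5801440, minus strand) and Meg3 (chr12:109558850-109558879, plus strand), in the 3′ UTR of Sall1 (a microglial transcription factor, chr8:89028144-89028173, minus strand) and in the coding sequence of Jph3 (a junctophilin, chr8:121784924-121784953, plus strand). They were chosen after the data were seen, as the named genes' sites with most matches, and are examples and not a test.
Grin2b, TDP-43: ggggtgctggcagGTGTGatgccccctcac
Mapt, TDP-43: ggggtaacgtggGTGTGTGTGccccttctg
Tomm20, TDP-43: agccctggcccctGTGTGcagGTGTGctgt
Peg13, TDP-43: tatggctGTGTGTGTGTGtatcggggggat
Malat1, m6A: agcattttgcattGGACTtgagctgaggtg
Meg3, m6A: ggacagtaatggGGACTttcttttgtatct
Sall1, m6A: tcttctgtattttGGACTaaatactaatgg
Jph3, m6A: ccagcccactgaGGACTtccgcacccgggg

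The sites of the 2 assays lay in different parts of the transcript. TDP-43 had the larger share in coding sequence and m6A the larger share in 3′ UTRs. Within the m6A libraries 3′ UTRs held more clusters than coding sequence in the 4 females, and fewer in the 4 males. Of a library's enriched clusters, 47.1%, 49.0% and 54.0% (lowest, median and highest) lay in coding sequence for TDP-43 and 38.2%, 41.8% and 43.3% for m6A. In 3′ UTRs the shares were 32.3%, 36.6% and 39.9% for TDP-43 and 41.5%, 44.3% and 49.5% for m6A. The 8 libraries of one assay did not overlap those of the other in either share. The mean differences were 8.49 percentage points more in coding sequence (49.9% ± 2.64 against 41.4% ± 1.89, SD, n = 8 each) and 9.0 fewer in 3′ UTRs (36.0% ± 2.79 against 45.0% ± 3.55), each with an exact two-sided permutation p of 0.000408, the smallest that 4900 labelings within sex can give, and an adjusted p of 0.000440 over 14 measures. The other 11 measures given below had the same p and adjusted p, except the intronic share. 5′ UTRs held 8.38% ± 0.888 of TDP-43 and 6.64% ± 0.963 of m6A clusters, but on all listed clusters TDP-43 was lower there by −2.03 percentage points (adjusted p = 0.000816, permutation within sex). Exons of noncoding genes held 1.88% ± 0.377 and 3.10% ± 0.328. Introns held 3.76% ± 1.25 and 3.77% ± 0.749, a difference within the spread between libraries (permutation p = 0.991). Of all listed clusters, without a choice by p, 22.3% lay in introns for TDP-43 and 13.3% for m6A (adjusted p = 0.000440, permutation within sex). The intronic difference had no settled direction, at 2.75 points with a p of 1e-10 (adjusted p = 0.00104), 3.28 with an equal number of clusters per library (adjusted p = 0.000519), and −2.91 with the thresholds of the study (adjusted p = 0.00156, all by permutation).

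The 3′ UTR difference was also present within the genes that both assays marked. In the 3103 genes with enriched clusters in at least 4 of 8 libraries of both assays, 38.7% ± 2.64 of exonic TDP-43 clusters and 48.1% ± 3.41 of m6A clusters lay in 3′ UTRs. The coding and 3′ UTR differences depended on the threshold. With the thresholds of the study, which add a log2 fold over input of 3 or more, the coding difference was −0.305 and the 3′ UTR difference −0.829 percentage points, and neither passed the test.

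**Figure D1:**
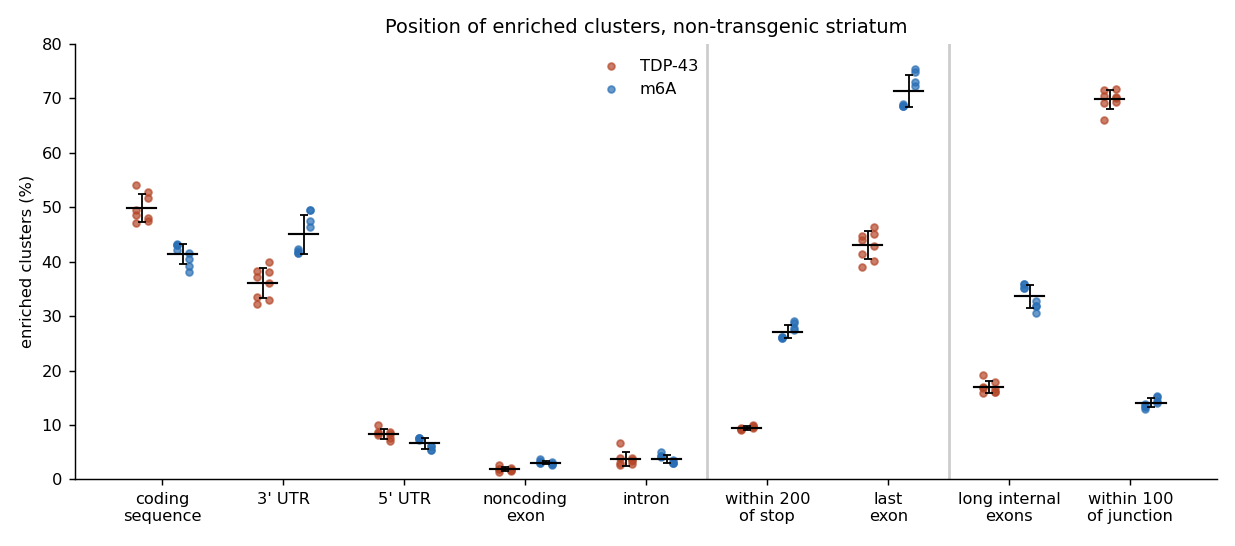
Share of a library's enriched clusters (vertical axis, %) in each transcript feature, near the stop codon, in the last exon, in long internal exons and near exon junctions (horizontal axis), for TDP-43 and m6A. Points are the 8 libraries of each assay, black bars are means with SD. The widest gap is at exon junctions, 69.8% against 14.1%, and the intronic shares overlap.

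Around stop codons the assays differed in shape. m6A clusters piled up at the stop codon and TDP-43 clusters did not. Of clusters in exons of coding genes, 26.0%, 26.8% and 29.0% (lowest, median and highest library) lay within 200 transcribed bases of the stop codon for m6A, and 9.06%, 9.42% and 9.98% for TDP-43. When each cluster was placed at 10 other positions of the same feature of the same gene, called shifted below, 11.6% of m6A and 8.85% of TDP-43 positions fell in this window. The m6A share was therefore 2.35 times and the TDP-43 share 1.07 times its shifted value. In bins of 100 bases, m6A rose from 3.22% ± 0.0622 of clusters between 300 and 200 bases upstream to 8.72% ± 0.402 in the first 100 bases of the 3′ UTR. TDP-43 held 2.32% ± 0.0810 and 2.16% ± 0.17 in the same bins, and 2.58% ± 0.0898 just upstream of the stop codon. Within 3′ UTRs, the first 10% of the length held 29.7% ± 1.57 of m6A clusters and 12.3% ± 0.385 of TDP-43 clusters, and the last 10% held 3.52% ± 0.438 and 4.47% ± 0.394.

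Exon structure separated the assays further than any other measure. Within 100 bases of an exon junction lay 66.1%, 70.2% and 71.8% of coding TDP-43 clusters and 12.9%, 13.9% and 15.4% of coding m6A clusters. The shifted values were 72.3% and 47.2%, so that TDP-43 was close to its shifted value and m6A was at 0.298 times its own. The first 25 bases beside a junction were low in both. They held 14.95% ± 1.44 of TDP-43 clusters (27.3% shifted) and 3.43% ± 0.399 of m6A clusters (16.9% shifted). TDP-43 then held 30.4% ± 1.03 at 25 to 50 bases (23.2% shifted), where m6A still held 3.24% ± 0.291 (14.7% shifted). These distances are of cluster midpoints, and shifted copies were placed by midpoint alone. Median cluster widths per library were 58 to 65 bases for TDP-43 and 63 to 83 for m6A. The part of cluster width in the steps below 50 bases was not tested. Internal exons longer than 400 bases took 33.7% ± 2.10 of coding m6A clusters (20.2% shifted) and 16.95% ± 1.12 of coding TDP-43 clusters (16.2% shifted). The last exon took 71.3% ± 2.92 of m6A (62.4% shifted) and 43.0% ± 2.57 of TDP-43 clusters (42.5% shifted).

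**Figure D2:**
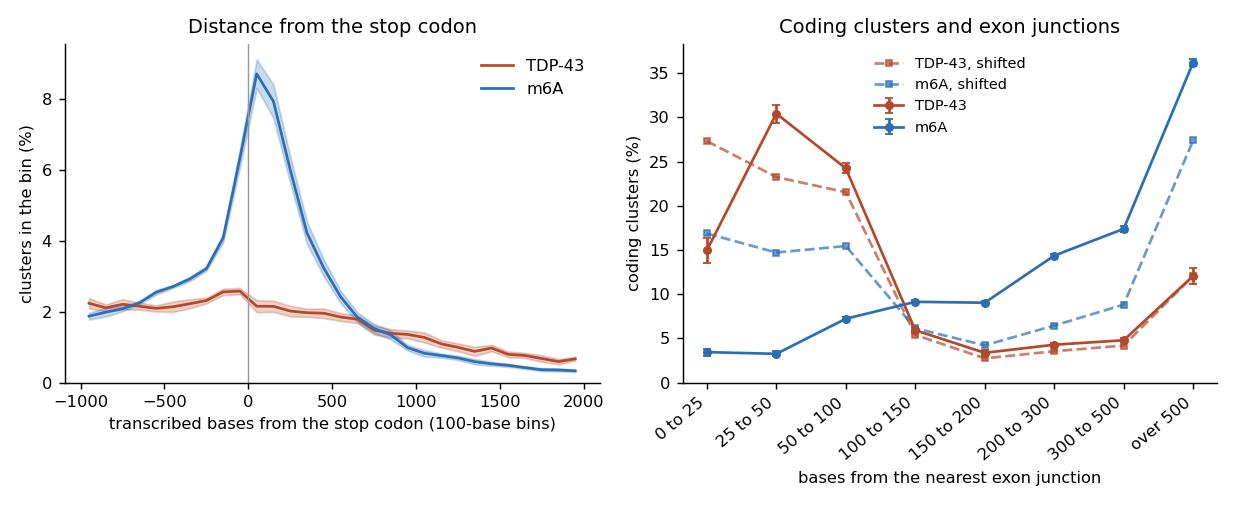
Left, share of clusters (%) in 100-base bins of transcribed distance from the stop codon, at 0, as the mean of 8 libraries with a band of 1 SD. Right, share of coding clusters (%) by distance to the nearest exon junction, observed as solid lines with SD and shifted as dashed lines. m6A peaks at 8.72% just past the stop codon while TDP-43 stays near 2.16%. Midpoints of TDP-43 clusters peak at 30.4% between 25 and 50 bases from a junction, and the part of cluster width in this was not tested.

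Male and female m6A libraries did not overlap in the 3′ UTR share, with means of 41.8% and 48.2%, nor in the share near stop codons, with 26.1% and 28.2%. The TDP-43 libraries of the sexes overlapped in 3′ UTRs, with means of 35.3% and 36.8%. None of the 14 differences between assays differed between the sexes after adjustment, with a lowest adjusted p of 0.0714 for DRACH and for GGACU. Whether males and females were processed apart is not given in the sources used here.

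Each assay carried the motif that it is known for. Of windows of 51 bases at TDP-43 clusters, 8.90%, 9.53% and 9.74% (lowest, median and highest library) held GUGUG, against 6.23%, 6.47% and 6.73% at m6A clusters, and no library of one assay reached the other. The shifted windows held 6.35% and 6.74%. GGACU was held by 4.81%, 5.23% and 5.46% of TDP-43 windows (4.77% shifted) and by 12.5%, 13.1% and 13.7% of m6A windows (5.22% shifted). DRACH, which is short and common, was held by 54.0% ± 1.38 of TDP-43 windows (60.3% shifted) and 76.8% ± 0.742 of m6A windows (61.7% shifted). UGUGU was closer between the assays, at 7.08% ± 0.288 (6.75% shifted) and 6.32% ± 0.0896 (7.42% shifted). These motifs were searched on the transcribed strand, and GUGUG and UGUGU overlap each other, as DRACH does GGACU.

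The TDP-43 motif stood out in 3′ UTRs and was weak in coding sequence. GUGUG was held by 15.03% ± 0.42 of 3′ UTR windows against 8.34% shifted, a ratio of 1.80, and by 12.1% ± 1.21 of windows in noncoding exons against 7.15% shifted. In coding sequence, which held the largest share of TDP-43 clusters, it was held by 5.90% ± 0.350 against 4.90% shifted, and in 5′ UTRs by 5.38% ± 0.620 against 5.41%. Intronic TDP-43 windows held GUGUG in 10.1% ± 1.54 against 8.34% shifted, and UGUGU in 9.34% ± 1.64 against 10.4% shifted. UGUGU was held by 12.9% ± 0.439 of TDP-43 windows in 3′ UTRs (10.5% shifted) and by 3.28% ± 0.330 in coding sequence (4.31% shifted). m6A carried its motif in each feature. GGACU was at 2.70 times the shifted share in 3′ UTRs (13.9% ± 0.547), at 2.34 times in coding sequence (12.4% ± 0.287), at 3.07 times in noncoding exons and at 3.68 times in introns (14.7% ± 1.21 against 4.00%), and lowest in 5′ UTRs at 1.63 times. Differences between features were not tested.

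TDP-43 clusters touched m6A sites more often than shifted copies of themselves, by a small margin. An m6A site was a stretch on 1 strand where enriched clusters from 4 or more of the 8 m6A libraries lay over each other, and a TDP-43 site likewise. Of a library's enriched TDP-43 clusters, 20.2%, 20.6% and 24.1% (lowest, median and highest) touched an m6A site by at least 1 base, against 15.8%, 16.2% and 16.4% of their shifted copies. The ratio was 1.47 in male 1, the library with fewest clusters, and 1.27 to 1.28 in the other 7. The mean shares were 21.0% ± 1.31 and 16.1% ± 0.227, a difference of 4.82 percentage points, higher in 8 of 8 libraries. The exact two-sided sign-flip p was 0.00781, the smallest that 8 libraries allow, and the adjusted p over 12 such tests was the same. In the converse direction, 6.12%, 6.49% and 7.30% of a library's m6A clusters touched a TDP-43 site, against 4.80%, 4.99% and 5.30% shifted (means 6.62% ± 0.485 and 5.05% ± 0.191, ratio 1.31, higher in 8 of 8, p = 0.00781, exact sign flips). The ratio was 1.23 to 1.28 in males and 1.33 to 1.39 in females.

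With all enriched clusters the excess was present in each feature, in both directions and in 8 of 8 libraries. For TDP-43 clusters on m6A sites the ratio to the shifted share was 1.14 in coding sequence (17.6% against 15.4%), 1.35 in 3′ UTRs (24.6% against 18.3%), 1.35 in 5′ UTRs (27.1% against 20.1%) and 1.34 in noncoding exons (12.0% against 8.94%). In coding sequence the excess was 2.23 percentage points and in 3′ UTRs 6.35. Introns were a case of their own. There 19.2% ± 6.14 of TDP-43 clusters touched an m6A site and only 0.242% of shifted copies did, and 4.38% ± 0.991 of m6A clusters touched a TDP-43 site against 0.0734%. These intronic places were few, 73 stretches in 51 genes, of which 11 lay in Ank3 and 6 in Mobp. They were short, with 42 under 30 bases and a median width of 24, against 51 over all shared stretches. Shifted copies could fall anywhere in the introns of a gene, so the intronic excess is not comparable with that in exons.

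The excess of TDP-43 clusters depended on how many clusters were taken. With the 4929 clusters of lowest p of each library, 1.82% of TDP-43 clusters touched an m6A site against 1.67% shifted (ratio 1.09, higher in 6 of 8 libraries, adjusted p = 0.0938, exact sign flips), and in introns none did. None of the 5 features passed the test for TDP-43 clusters then, and for m6A clusters only noncoding exons did. With the thresholds of the study the excess of TDP-43 clusters in coding sequence was 0.0586 points (adjusted p = 0.258, exact sign flips). For m6A clusters on TDP-43 sites the shares were then 3.38% and 2.60% (ratio 1.30, higher in 8 of 8, adjusted p = 0.0469, exact sign flips). A second background gave another answer for m6A. Clusters of the same library, gene and feature that were listed but not enriched touched m6A sites in 12.9% of cases for TDP-43, where 19.6% of enriched clusters did (ratio 1.52, higher in 8 of 8 libraries). For m6A the enriched clusters touched TDP-43 sites less often than the clusters that were not enriched, 7.63% against 8.58% (ratio 0.890, lower in 8 of 8 libraries, p = 0.00781, exact sign flips).

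**Figure D3:**
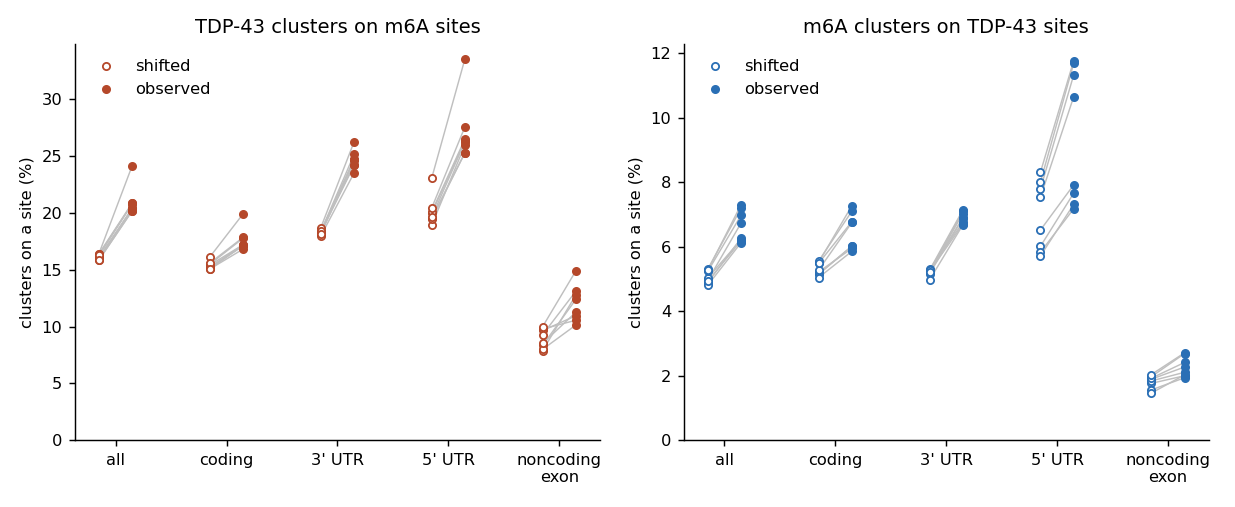
Share of a library's clusters on a site of the other assay (vertical axis, %) by feature (horizontal axis), TDP-43 clusters on m6A sites on the left and the converse on the right. Open points are shifted copies and filled points are observed, joined for each of 8 libraries. Observed lies above shifted in each library and feature shown, with means of 21.0% and 16.1% for all TDP-43 clusters, and introns are not drawn.

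The excess was found close to the centre of the other assay's sites. TDP-43 clusters with their midpoint within 25 bases of the centre of an m6A site in the same gene and feature made up 5.81% ± 1.13, against 3.64% shifted, a ratio of 1.60. The ratio fell to 1.22 at 25 to 50 bases, 1.16 at 50 to 100, 1.06 at 100 to 200 and 1.01 at 200 to 500 bases, and was 0.923 at 500 to 1000. For m6A clusters around TDP-43 sites it was 1.38, 1.27, 1.17, 1.10, 0.977 and 0.892 in the same steps. The gene and feature held no m6A site for 30.02% of TDP-43 clusters and no TDP-43 site for 70.7% of m6A clusters, which are counted in the denominators. No test was made on the distances.

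**Figure D4:**
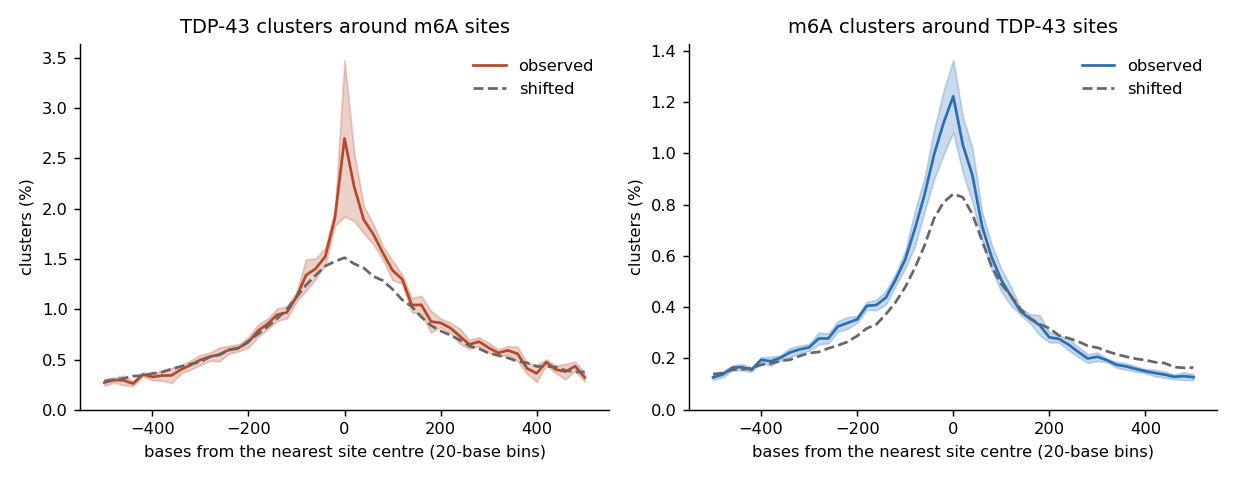
Share of clusters (vertical axis, %) by distance of the midpoint from the nearest site centre of the other assay in the same gene and feature (horizontal axis, 20-base bins), observed as a solid line with a band of 1 SD over 8 libraries and shifted as a dashed line. The observed line stands above the shifted one near 0, with a ratio of 1.60 for TDP-43 within 25 bases, where the spread between libraries is also widest. Around m6A sites it meets the shifted line by 200 to 500 bases.

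In all, 14007 TDP-43 sites with a median width of 68 bases lay in 3281 genes, and 35387 m6A sites with a median width of 131 bases in 11474 genes. Of the TDP-43 sites 2982 (21.3%) touched an m6A site, and of the m6A sites 2449 (6.92%) touched a TDP-43 site. They shared 3096 stretches in 1453 genes, of which 1414 lay in 3′ UTRs, 1280 in coding sequence, 297 in 5′ UTRs, 73 in introns and 31 in noncoding exons. The stretches on which all 16 libraries had an enriched cluster numbered 542, in 361 genes. Map1a, a microtubule-associated protein of neurons (chromosome 2), had most, 18 shared stretches from 20 TDP-43 and 31 m6A sites, 14 of them in coding sequence. Ank3, which encodes ankyrin-G of the axon initial segment (chromosome 10), had 16, of which 11 were intronic. The noncoding RNA Peg13 (chromosome 15) and Jph3 also had 16 each, Ppp1r9a (neurabin, chromosome 6) 15, Akap9 (an anchoring protein of protein kinase A, chromosome 5) 14, all in coding sequence, Adcy1 (adenylate cyclase 1, chromosome 11) 13, and Slc1a2 (the astrocytic glutamate transporter, chromosome 2) 13, all in the 3′ UTR. In Slc1a2, 12 of 28 TDP-43 sites met only 3 of 5 m6A sites.

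Of the shared places with an enriched cluster in all 16 libraries, the 6 whose joined TDP-43 and m6A sites were narrowest are printed, at most 30 bases each, because there the sites of the assays agree most closely in place. Capitals mark DRACH, which 4 of the 6 hold, and neither GUGUG nor UGUGU is in the printed bases. They lay in introns of 1700025F22Rik (chr19:11145153-11145175, minus strand), of C230029F24Rik (chr1:49265480-49265504, plus strand) and of Epha6, an ephrin receptor (chr16:59842780-59842805, minus strand), in an exon that Igsf5 shares with Pcp4, a calmodulin-binding peptide (chr16:96493827-96493856, plus strand), in coding sequence of Syf2, a spliceosome component (chr4:134930984-134931013, plus strand), and in the 5′ UTR of Fkbp2, a peptidyl-prolyl isomerase (chr19:6980395-6980424, minus strand). Annotation does not settle whether the fourth belongs to Igsf5 or Pcp4. A match is a description of letters and not of a methylated base.
1700025F22Rik: ctttgAGACTagagagtccgact
C230029F24Rik: aaatccaattgcattctgctttctc
Epha6: ctaAAACTgAAACTtaaagaaattga
Igsf5 or Pcp4: cggagcgaccaacggaaaAGACAagacgtc
Syf2: agaaggctgtaatggcggctgTGACTgaag
Fkbp2: gcgggattggctccgggggcgcggcgagga

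The excess was compared with that in the nearest other tissues. The ratio of observed to shifted share of TDP-43 clusters on m6A sites was 1.27, 1.27 and 1.47 (lowest, median and highest library) in NT striatum, 1.23, 1.25 and 1.27 in NT cortex and 1.21, 1.26 and 1.34 in R6/2 striatum, each with the sites of its own tissue and genotype. All TDP-43 libraries of a group were scored on 1 common set of m6A sites, and the converse likewise. The p-values of this comparison therefore leave out the spread between the libraries that made the sites. The difference from cortex was 0.05 on the log2 scale (1.30 against 1.25 as geometric means, exact permutation within sex, p = 0.000408, adjusted p = 0.00163 over 4 tests), and the lowest striatum and the highest cortex library were both at 1.27. It was 0.03 without TDP-43 male 1 (adjusted p = 0.00163), but between 0.00786 and 0.0153 without any one of the 4 female m6A libraries of NT striatum (adjusted p 0.7996 to 0.983), and with an equal number of clusters per library it turned to −0.238 (adjusted p = 0.00327, permutation). The difference from R6/2 striatum was 0.03 (adjusted p = 0.496). For m6A clusters on TDP-43 sites the ratio was 1.31 in NT striatum, 1.33 in NT cortex (exact permutation within sex, adjusted p = 0.213) and 1.34 in R6/2 striatum (p = 0.0363, adjusted p = 0.0727), and with the thresholds of the study the latter difference turned to 0.123 (adjusted p = 0.0359).

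TDP-43 marked fewer genes than m6A, and most of them carried m6A as well. Enriched clusters in at least 4 of 8 libraries were found in 3510 genes for TDP-43 and in 11676 for m6A, and 3103 genes had both, which is 88.4% of the TDP-43 list and 26.6% of the m6A list. The share of all genes expressed in striatum that carry m6A clusters was not measured, so 88.4% is not shown to exceed it. No m6A library had an enriched cluster in 259 of the TDP-43 genes (7.38%), and no TDP-43 library had one in 7223 of the m6A genes (61.9%). In all 8 libraries of one assay and none of the other lay 65 genes for TDP-43 and 5603 for m6A. Each m6A library also held more enriched clusters than any TDP-43 library, and the part of list size in these counts was not tested.

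Per gene, the number of enriched clusters was compared on a log2 scale with limma, after division by size factors. Of 7771 genes tested, 597 (7.68%) had more TDP-43 than m6A clusters and 6584 (84.7%) had fewer at an adjusted p under 0.05. The median difference was −2.84. The filter for this test counted the libraries of both assays together, so a gene could enter through m6A alone. With the filter applied in both assays, 2051 genes were tested, 435 were higher and 1027 lower, and the median was −0.63. The gene lists below are placed against −2.84 or the median of a named setting, and not against −0.63. The split changed with the scale. It was 2655 and 2839 with quantile scaling, whose median was near 0, and 1212 and 5601 with scaling to total clusters, whose median was −2.12. Without TDP-43 male 1 the split was 954 and 6909. On all listed clusters 2609 of 6108 genes were higher for TDP-43 and 1473 lower.

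The 8 genes furthest towards TDP-43 had TDP-43 medians of 13 or more clusters and m6A medians of 0 or 3. Trim37, a ubiquitin ligase of peroxisomes and centrosomes (chromosome 11), had 13, 27 and 38 enriched TDP-43 clusters per library (lowest, median and highest). It had 0 enriched m6A clusters in each of 8 libraries. Itpr1, the IP3 receptor of the endoplasmic reticulum (chromosome 6), had 35, 82 and 108 TDP-43 clusters and 2, 3 and 5 m6A clusters (log2 difference 4.95, SE 0.18, limma adjusted p = 4.0e-14). Of its TDP-43 clusters 95.2% lay in coding sequence. The smallest gaps between the assays were in Myh14, a nonmuscle myosin, and Mib1, a ubiquitin ligase of Notch signalling, each with 2 clusters in TDP-43 male 1 and 1 in the m6A library of female 1, and with TDP-43 medians of 25.5 and 23.5. The others were Hnrnpul2, an RNA-binding protein (median 28 against 0), Tomm20 (16 against 0, its TDP-43 clusters all in the 3′ UTR), Eif4b, a translation initiation factor (13 against 0), and Rasgef1a, an exchange factor of Ras proteins (15.5 against 0). Before selection by p these genes were listed in both assays, with medians of 32 and 30.5 clusters for Trim37 and of 91.5 and 90.5 for Itpr1, and neither was called on all listed clusters.

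The 8 genes furthest towards m6A mirrored this. Ptprz1, a receptor phosphatase of glia (chromosome 6), had 27, 32 and 37 enriched m6A clusters per library, 92.6% of them in coding sequence, and 0 in each TDP-43 library. Irs2, an adaptor of insulin signalling (chromosome 8), had 24, 30 and 35, and Foxo1, a transcription factor under insulin control (chromosome 3), 26, 30 and 34. Dag1 (dystroglycan), Syt6 (a synaptotagmin) and Lrtm2 had m6A medians of 29.5, 27 and 26.5 and no enriched TDP-43 cluster in any library. Gprin3 (a regulator of neurite growth) had 1 enriched TDP-43 cluster in 1 library against a median of 32.5 for m6A. Of the m6A clusters of Zc3h11a 96.1% lay in exons of several genes, so its count is uncertain. Over all genes such clusters were 1.24% of m6A and 1.05% of TDP-43 clusters. Syt6 was listed with medians of 30 TDP-43 and 30.5 m6A clusters before selection by p. For genes at 0 in one assay the fitted difference depends on the 0.5 that was added. They entered the test through the other assay alone, so neither that difference nor its p is given.

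**Figure D5:**
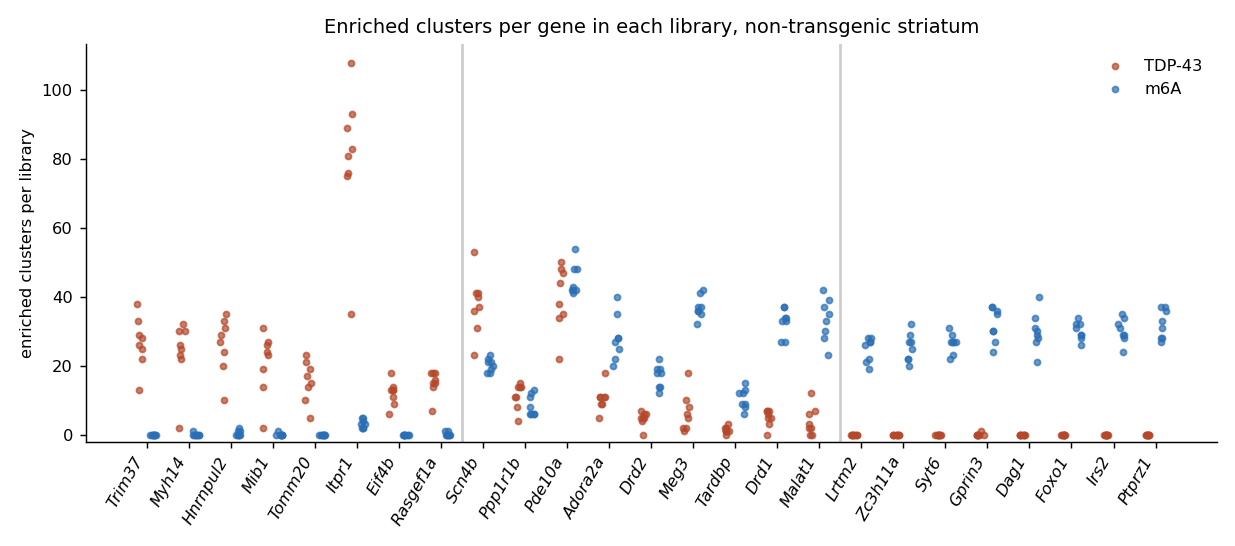
Enriched clusters per library (vertical axis) in the 8 genes furthest towards TDP-43, in 9 striatal and other named genes, and in the 8 genes furthest towards m6A (horizontal axis). Points are the 8 libraries of each assay, spread sideways for view. Itpr1 reaches 108 TDP-43 clusters with at most 5 for m6A, and Ptprz1 reaches 37 m6A clusters with 0 for TDP-43.

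Genes of medium spiny neurons, the projection neurons that make up most of striatum, were marked by both assays, and some of them mainly by TDP-43. Scn4b, a sodium channel subunit (chromosome 9), had 23, 38.5 and 53 TDP-43 clusters, all in the 3′ UTR, and 18, 20.5 and 23 m6A clusters, so that each TDP-43 library was at or above the highest for m6A (log2 difference 1.40, SE 0.15, adjusted p = 1.1e-07, but −0.01 on all listed clusters). Pde10a, a phosphodiesterase (chromosome 17), had 22, 41 and 50 TDP-43 and 41, 42.5 and 54 m6A clusters, and 73.9% and 96.4% of them lay in the 3′ UTR (log2 difference 0.34, SE 0.10, adjusted p = 0.00606, but −0.14 with quantile scaling and −1.12, adjusted p = 0.000456, at a p of 1e-10). Ppp1r1b (DARPP-32, chromosome 11) had 4, 12.5 and 15 against 6, 7 and 13 (log2 0.90, adjusted p = 0.000353, but −1.004 on all listed clusters). The dopamine receptor transcripts went the other way. Drd1 (chromosome 13) had 0, 5.5 and 7 TDP-43 clusters and 27, 33.5 and 37 m6A clusters (log2 −2.58, SE 0.44, adjusted p = 3.3e-05), and Drd2 (chromosome 9) 0, 5 and 7 against 12, 18 and 22 (log2 −1.67, adjusted p = 0.00190, but not called with total or quantile scaling, and 0.25 on all listed clusters). Adora2a, the adenosine receptor of the indirect pathway (chromosome 10), had 5, 11 and 18 against 20, 27.5 and 40 (log2 −0.86, adjusted p = 2.6e-05, but 0.66 with total scaling). Of 29 medium spiny neuron genes tested, 11 had more and 12 fewer TDP-43 clusters, where 7.68% and 84.7% of all genes did, with a median of −0.20, which is 2.65 above the median of all genes. That distance was 0.42 with quantile scaling and −0.16 when all listed clusters were counted.

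Of 33 synaptic genes tested, 9 were higher for TDP-43 and 18 lower, beside 7.68% and 84.7% of all genes. Their median of −0.38 was 2.46 above that of all genes. That distance was 0.04 with quantile scaling and 0.14 on all listed clusters. Grin2b (chromosome 6) had 29, 71 and 87 TDP-43 clusters and 39, 50 and 55 m6A clusters (log2 0.93, SE 0.07, adjusted p = 2.0e-09, but 0.08 and not called at a p of 1e-10), and in different places: 91.1% of the TDP-43 clusters lay in the 3′ UTR, and 50.6% of the m6A clusters lay in coding sequence. Bsn (bassoon, a scaffold of the presynaptic active zone) had medians of 32 and 53.5 clusters (log2 −0.47, adjusted p = 0.0481). Without any one of 9 of the 16 libraries it was not called, among them TDP-43 male 1 (log2 0.10, adjusted p = 0.568). Among known TDP-43 targets and TDP-43 itself, 10 of 22 were higher and 10 lower, with a median of −0.15, which is 2.69 above that of all genes. That distance was 1.57 with quantile scaling and 0.05 on all listed clusters. Mapt had 7, 16.5 and 23 TDP-43 clusters, all in the 3′ UTR, and 22, 28.5 and 34 m6A clusters (log2 −0.26, adjusted p = 0.0108, but 0.12 and not called without TDP-43 male 1). Nrxn3, a presynaptic adhesion molecule, had medians of 6.5 and 38.5 (log2 −2.88, adjusted p = 2.4e-05, but 0.81 on all listed clusters). Tardbp, which encodes TDP-43 (chromosome 4), had 0, 1 and 3 TDP-43 clusters, all in the 3′ UTR, and 6, 10.5 and 15 m6A clusters (log2 −2.39). Its TDP-43 counts were near 0 and it entered the test through m6A alone, so no p is given. On all listed clusters, with medians of 15.5 in both, the difference of Tardbp was 0.14, and with quantile scaling it was −0.27 and not called.

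Of genes for splicing factors 6 of 21 were higher for TDP-43 and 10 lower, beside 7.68% higher and 84.7% lower over all genes. Their median of −0.76 was 2.09 above that of all genes. That distance was 0.97 with quantile scaling and 0.12 on all listed clusters. Celf4, an RNA-binding protein of neurons, had medians of 9 TDP-43 and 22 m6A clusters (log2 −1.04, adjusted p = 6.5e-08), but was higher for TDP-43 with total scaling (0.47) and on all listed clusters (1.15). Srrm2, a scaffold of nuclear speckles, had medians of 14.5 and 33 (log2 −0.85, adjusted p = 0.0227) and was not called without TDP-43 male 1 (log2 −0.14, adjusted p = 0.541). Of the m6A writers, erasers and readers 3 of 16 were higher and 12 lower (median −2.82, near that of all genes). Eif3a, a subunit of the initiation factor that can bind m6A (chromosome 19), had 17, 30.5 and 38 TDP-43 clusters and 4, 12 and 19 m6A clusters, nearly all in coding sequence (log2 2.06, adjusted p = 4.2e-07). Prrc2a, a reader of m6A, had medians of 19 and 21 clusters (log2 0.18, adjusted p = 0.210, and 0.68, adjusted p = 6.4e-05, without TDP-43 male 1). Mettl3 had too few clusters for a test. All 21 immediate early genes tested were lower for TDP-43, beside 84.7% of all genes, and their median of −2.72 was 0.12 above that of all genes. Egr1 had medians of 4 and 29.5 and Homer1, a scaffold at glutamate receptors, of 6.5 and 25.5. Neither of them was called with total scaling, and Homer1 was at 0.14 on all listed clusters. With quantile scaling 10 of the 21 were lower and 1 higher.

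Microglial and vascular marker genes had no enriched TDP-43 cluster, as was the case for 61.9% of all m6A genes. The 16 microglial genes had 0 enriched TDP-43 clusters in each library and 53 to 82 m6A clusters per library, and the 16 vascular genes 0 and 38 to 52. Cx3cr1, the fractalkine receptor of microglia, had 7, 14 and 20 m6A clusters and Sall1 11, 12.5 and 14. Slc2a1, the glucose transporter of brain endothelium, and Pdgfrb, a receptor of pericytes, had m6A medians of 13.5 and 6. TDP-43 clusters were listed in these genes, with medians of 5.5 for Cx3cr1, 9.5 for Sall1, 7.5 for Slc2a1 and 7 for Pdgfrb, but none was enriched. The medians of the lists relative to all genes were −0.85 and −0.49, and −0.53 and −0.22 with quantile scaling. Beside 7.68% higher and 84.7% lower over all genes, astrocyte genes were higher for TDP-43 in 3 of 19 and lower in 12 (median −2.26), oligodendrocyte genes higher in 5 of 18 and lower in 12 (median −2.83). Slc1a2 had medians of 36.5 and 48 (log2 0.08, adjusted p = 0.480), but was called higher without TDP-43 male 1 (log2 0.41, adjusted p = 0.000351). Sparcl1, a secreted synaptogenic protein, had 9 and 18 (log2 −0.55, adjusted p = 0.000465, but −0.14, adjusted p = 0.302, without TDP-43 male 1). Mobp, a myelin protein, had 21 and 31 (log2 −0.04, adjusted p = 0.808, and 0.28, adjusted p = 0.0310, without TDP-43 male 1). Most of the Mobp clusters lay in annotated introns, 85.1% for TDP-43 and 82.1% for m6A. Of 9 cortical excitatory genes 1 was higher and 8 lower (median −2.70). Cux2 had no enriched TDP-43 cluster and an m6A median of 19, while its listed medians were 24 and 22.5. Slc17a7 had 4 and 7 (log2 −1.28, limma adjusted p = 0.0301, and −0.65, adjusted p = 0.224, without TDP-43 male 1).

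Ribosomal protein mRNAs, which are short and abundant, were a class in which enriched clusters of TDP-43 reached more genes than those of m6A. Of 78 cytosolic ribosomal protein genes, 22 had enriched TDP-43 clusters in at least 4 of 8 libraries and 14 had enriched m6A clusters. Over all genes the counts by the same rule were 3510 and 11676. Of the 8 that could be tested, 3 were higher for TDP-43 and 3 lower, beside 7.68% and 84.7% of all genes. The split turned with the processing. It was 7 higher and 0 lower with quantile scaling, and 0 higher and 3 lower of 6 tested on all listed clusters. Rpl4 had 4, 9 and 11 TDP-43 clusters, 92.4% of them in coding sequence, and 0 enriched m6A clusters, while its listed medians were 10 and 12. Rpl13a had 3, 8 and 9 against 1, 1 and 3 (log2 2.45, but −0.83 on all listed clusters). It entered the test through TDP-43 alone, so no p is given. Of the TDP-43 clusters of Rpl13a 59.3% lay in exons of several genes, against 1.05% over all genes, so its count is uncertain. Of the long noncoding RNAs 0 of 11 were higher for TDP-43 and 10 lower, beside 84.7% of all genes lower (median −2.29, which is 0.55 above that of all genes, 1 higher and 6 lower with quantile scaling). Malat1 (chromosome 19), which is retained in the nucleus, had 0, 2.5 and 12 TDP-43 and 23, 34 and 42 m6A clusters (log2 −3.03, SE 0.71, adjusted p = 0.000696, but not called with total scaling, and 0.33 on all listed clusters). Meg3 (chromosome 12), an imprinted RNA of neurons, had 1, 5.5 and 18 against 32, 36.5 and 42 (log2 −2.29, adjusted p = 0.00135, but −0.82, adjusted p = 0.230, with total scaling), and Peg13 1, 21.5 and 26 against 68, 73 and 81 (log2 −1.73, adjusted p = 6.0e-05, but −0.20, adjusted p = 0.520, with total scaling). Of the mitochondrial genes 2 could be tested. mt-Nd4 had a median of 8.5 enriched m6A clusters and 1 enriched TDP-43 cluster in 1 library, and mt-Nd2 a median of 3.5 and none.

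Small RNAs made up a part of the genes that TDP-43 alone marked. Of the 65 genes with enriched clusters in all 8 TDP-43 libraries and none for m6A, 38 were protein coding, 7 were annotated as miRNA genes, 6 as processed pseudogenes, 5 as snoRNAs and 3 as mitochondrial tRNAs. Clusters of the miRNA genes Mir219a-2, Mir139, Mir29a, Mir128-1 and Mir2137 covered a mature arm, by the rule that follows. Gm24589 and mmu-mir-3535 had no arm that met it. Among 1738 mature arms in RefSeq (GRCm38.p6), 17 were covered from end to end by adjoining enriched TDP-43 clusters in at least 4 of 8 libraries and 14 by m6A clusters, and none by both. On 15 of the 17 the covered stretch had a median width of at most 30 bases. On the 14 m6A arms the stretch had a median width of 76 to 496 bases. The 6 arms covered in 8 of 8 TDP-43 libraries are printed with the seed, bases 2 to 8, in capitals. Of these, let-7b and let-7i share the seed GAGGUAG, and let-7b holds GUGUG. They were picked out after the data were seen. Mature miRNAs carry no poly(A) tail, and the m6A RNA was selected for it, so a lack of m6A clusters on them cannot be told apart from the preparation.
mmu-let-7b-5p (chr15:85707325-85707346, plus strand): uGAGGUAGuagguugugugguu
mmu-let-7i-5p (chr10:122985698-122985719, minus strand): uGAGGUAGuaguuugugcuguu
mmu-miR-128-3p (chr1:128202404-128202424, plus strand): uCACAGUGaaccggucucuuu
mmu-miR-139-5p (chr7:101475382-101475403, plus strand): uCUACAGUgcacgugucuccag
mmu-miR-219a-5p (chr2:29845689-29845709, minus strand): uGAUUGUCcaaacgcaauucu
mmu-miR-29a-3p (chr6:31062673-31062694, minus strand): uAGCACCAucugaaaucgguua

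The mature sequences of miR-128-3p and miR-219a-5p are each held by 2 genes, and the places printed are those of Mir128-1 and Mir219a-2. For let-7b and let-7i 1 of 8 m6A libraries also had an enriched cluster over the arm, and for the other 4 arms none did. Before selection by p, listed m6A clusters covered the let-7b and let-7i arms in 8 of 8 libraries and the other 4 arms in none. miR-29a, miR-128 and let-7 are abundant in brain, and miR-219a is a miRNA of oligodendrocytes. Other arms covered in 7 of 8 TDP-43 libraries were those of miR-127-3p, miR-153-3p, miR-2137 and miR-3061-5p. Counting all listed clusters, 99 arms were covered for TDP-43 and 32 for m6A in at least 4 of 8 libraries.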

How the data were processed

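Cluster lists of the 16 NT striatum immunoprecipitation libraries were analysed, with those of NT cortex and R6/2 striatum for 1 comparison. The authors called clusters with CLIPper on mm10 and deposited for each a −log10 p and a log2 fold of immunoprecipitate over input, both used only to select clusters. The aligner is not given in the sources used here. Cluster ends lay within the GRCm38 chromosomes, and 99.93% of the annotated start codons checked read ATG in the genome used. Clusters were placed by midpoint and strand in GENCODE vM21 genes, with coding sequence before 3′ UTR, 5′ UTR, noncoding exon and intron. Enriched means a −log10 p of 3 or more. Shifted copies lie at 10 evenly spaced other places of the same feature of the same gene.

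Library shares were tested by exact permutation within sex, overlaps by exact sign flips over 8 libraries, all two-sided with Benjamini-Hochberg adjustment. Genes that reached 2 enriched clusters in 8 of the 16 libraries were fitted with limma 3.58.1 (R 4.3.3, trend, sex as covariate) on log2 of clusters divided by median-ratio size factors, with 0.5 added. These tests were checked on simulated data. Other steps used Python 3.11.15 and NumPy 2.4.6. p-values measure the spread between libraries, and the labels name no animals. For overlaps this is the spread of the assay whose clusters were counted, as the sites of the other assay were common to all.

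Named genes are the 8 highest and 8 lowest differences among called genes with a mean of 4 or more clusters and 1 sign in both sexes, 10 fixed names, and the 2 members of each of 14 gene lists with most clusters. One gene named by this rule is not reported here. Genes at sites are the 8 with most shared stretches. Shared places in equally many libraries were ordered by the width of their joined sites. Chromosome 18 was left out of printed sequences and miRNA arms. The members, lists and rules were chosen with earlier results of these data known. Merging of adjoining enriched clusters, the test by sex and the miRNA arms were added after the data were seen. Other alternatives were the cluster threshold, an equal number of clusters per library, scaling, filters, the site rule, the overlap rule, local shifts, a replicate block and leaving out each library. Gene lists were described without a test. Numbered libraries of the 2 assays did not deviate together (correlations −0.0166 to 0.0379 over 8 pairs) and were not treated as pairs.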

Additional observations from a re-analysis of the deposited data

Results flagged for a closer look

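In groups of 8 libraries, 1 library was taken to stand apart where its gap to the nearest other, divided by the whole range, was above Dixon's critical value at 95%. Of 136 groups 18 did, where chance gives about 1 in 20. Most concerned the TDP-43 library of male 1, which had the fewest enriched clusters. Its clusters had a median width of 65 bases (58 to 60 in the others), 6.61% lay in introns (2.58% to 3.98%), 66.1% of coding clusters lay near a junction (69.1% to 71.8%) and 4.81% of windows held GGACU (5.15% to 5.46%). On m6A sites lay 24.1% of its clusters (20.2% to 20.8%), 1.47 times the shifted share (1.27 to 1.28). Among the named genes, its log2 normalized clusters were lowest for Myh14 (2.86), Mib1 (2.86), Bsn (4.12) and Peg13 (1.95) and were at −1, the value of a gene without clusters, for Tardbp, Drd1, Drd2 and Homer1. The m6A library of female 1 alone had a cluster in Myh14 and in Mib1 (0.35 on the same scale), and the TDP-43 library of female 3 alone had one in Gprin3 and in mt-Nd4 (0.91).

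The overlap of TDP-43 clusters with m6A sites differed between NT striatum and NT cortex by 0.05 on the log2 scale (0.0515), under the permutation test given above. That test leaves out the spread between the m6A libraries that made the sites.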

How the results depend on the processing

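The shares near stop codons, in the last exon, in long exons, near junctions and in 3′ UTRs of shared genes, and those of GUGUG, DRACH and GGACU, kept their direction and call under each alternative run. The rest of the results changed as follows, and the causes were not tested. Feature and overlap differences are TDP-43 minus m6A or observed minus shifted in percentage points, region and genotype differences are log2 ratios, and gene differences are log2.

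At the strict threshold, a p of 1e-10, the difference was 2.65 in coding sequence, −0.217 in noncoding exons and 2.75 in introns, the overlap of TDP-43 clusters differed by 0.0760 from cortex and by −0.0594 from R6/2, 146 genes were higher, and Pde10a was at −1.12, Prrc2a at −1.86, Slc1a2 at −1.11 and Mobp at 0.0561. With the thresholds of the study it was −0.305 in coding sequence, −0.829 in 3′ UTRs and −2.91 in introns, the overlap differed by 0.0542 from cortex (TDP-43) and 0.123 from R6/2 (m6A), 834 genes were lower, and Adora2a was at 0.82, Bsn at 1.97, Celf4 at 2.68, Mapt at 2.09 and Mobp at 4.97. With all listed clusters it was −2.03 in 5′ UTRs and 8.97 in introns, and the overlap differed by −0.00553 from cortex (TDP-43) and by 0.0339 (TDP-43) and 0.0183 (m6A) from R6/2. With adjoining clusters merged, chosen after seeing the data, it was −0.685 in 5′ UTRs and −2.32 in introns, and the overlap differed by 0.0284 (TDP-43) and 0.000637 (m6A) from cortex and by −0.0451 from R6/2 (m6A). With an equal number of clusters per library it was 3.28 in introns and 0.212 for UGUGU, the overlap of TDP-43 clusters with m6A sites was 0.154 above shifted in all and −0.173 in 5′ UTRs, it differed by −0.238 from cortex and by −0.133 (TDP-43) and 0.0317 (m6A) from R6/2, 439 genes were lower, and Bsn was at 1.61, Celf4 at 2.15, Mapt at 1.48, Sparcl1 at 3.59 and Mobp at 4.18.

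With an equal number of clusters 10 of the 12 overlap results lost their call, one of them with a turned sign, and 3 more results by feature did so at other thresholds. Against clusters that were not enriched, the overlap of m6A clusters with TDP-43 sites was −0.947. The difference from cortex was 0.00815 with sites in at least 6 of 8 libraries and 0.0352 with an overlap of at least 50% of the cluster. When every listed cluster was counted, in genes that had 10 of them and with 4 added to the count, 2609 genes were higher and 1473 lower, with Syt6 at 0.0377, Tardbp 0.14, Scn4b −0.0115, Drd2 0.25, Ppp1r1b −1.004, Malat1 0.33, Srrm2 0.35, Celf4 1.15, Mapt 0.21, Nrxn3 0.81, Homer1 0.14, Cux2 0.15, Rpl4 −0.0797 and Rpl13a −0.83. With total scaling 1212 were higher, with Adora2a at 0.66, Bsn 1.08, Srrm2 0.67, Celf4 0.47, Mapt 1.27, Sparcl1 0.96 and Mobp 1.498. With quantile scaling 2655 were higher and 2839 lower, with Pde10a at −0.14, Slc1a2 −0.41, Sparcl1 0.21, Slc17a7 1.05 and mt-Nd2 0.18. Without a filter 948 were higher and 10433 lower, and with the filter in both assays 1027 were lower. In females alone Bsn was at 0.64, Srrm2 0.11, Mapt 0.22, Sparcl1 0.0196, Mobp 0.14 and Slc17a7 0.0245, and in males alone Prrc2a was at −0.25 and Mobp at 0.18.

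Leaving out 1 library at a time gave −0.414 to 0.164 for introns, 0.00786 to 0.0694 (TDP-43) and −0.0327 to −0.00762 (m6A) for the difference from cortex, −0.0164 to 0.0604 and −0.0526 to −0.0238 for that from R6/2, 578 to 954 genes higher (954 without TDP-43 male 1), and for Bsn −0.59 to 0.10, for Mapt −0.30 to 0.12 and for Mobp −0.0844 to 0.28. With the replicate number as a replicate block, 588 genes were higher and 6569 lower, and of the named results Bsn alone changed its call (−0.47, limma adjusted p = 0.101). Of 8 pairs 2 correlated best with their own number, and the samples share only a number. The number of reads behind a cluster is unknown, so a gene without enriched clusters is not shown to lack binding or m6A.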
